A study of Arabidopsis thaliana with 66 samples.

Results

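Stage 15 petals of Arabidopsis thaliana, taken from open flowers, were compared with stage 15 sepals, stamens and carpels to describe the transcripts that were higher, and those that were lower, in petals than in all 3 other organs. The petals are represented by 3 of the 66 arrays of the study, and the 4 organs together by 12. Each organ group has 3 arrays, lettered B, C and D in petals and A, B and C in sepals, stamens and carpels. All 12 come from the wild-type accession Col-0, grown on soil in continuous light at 23 °C and 65% relative humidity. Stage 12 petals, sepals, stamens and carpels of Col-0, grown alike, have 3 arrays each. Stage 15 pedicels and whole flowers, at the same temperature and humidity, are also used, with 3 arrays each. Mature pollen has 3 arrays, at 23 °C with no humidity recorded. Flowers of 7 mutants (ap3-6, ag-12, ap2-6, ap1-15, lfy-12, ufo-1 and clv3-7), in the Col-0 background, were taken at the equivalent of stage 12 and are set against whole Col-0 flowers of stage 12, again with 3 arrays per group. Total RNA was hybridised to one-colour ATH1 arrays, on which a probe set is a group of short probes for one transcript. The labels do not say whether the arrays of a group came from separate plants. The p-values rest on the spread between arrays within groups, pooled over all 66 arrays of the study. Part of that spread may be technical.

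Petals form the second whorl of the flower, inside the sepals and outside the stamens. Their identity rests on the class A genes AP1 and AP2 acting with the class B genes AP3 and PI, and class B activity is shared with the stamens. Petal blades first grow by cell division and then by cell expansion, during which the cells lose their green plastids and often raise their DNA content without dividing, and the open petal is short-lived and later senesces and falls.

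Signals are MAS5 intensities on a linear scale. A floor of 22.6 was set at the 40th percentile of all values, and a group is called below the floor where its arrays all lie under it. Differences are given as log2(signal + 11.3), petals minus the other organ, a scale that understates the change of dim genes. A probe set was called higher or lower at a Benjamini-Hochberg adjusted p below 0.05, from limma, and a difference of at least 2-fold. Every probe set past 2-fold also passed the adjusted p in each of the 3 comparisons, so that the fold limit set the calls. Where one group is below the floor, a fold is given as "at least", as the mean of the other group over the floor. Throughout, ± is the SD over 3 arrays, or the SE of the fit where it follows a log2 difference.

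The 3 petal arrays correlated with each other at 0.9886 to 0.9898 across the 17646 tested probe sets, and 12458 to 12675 probe sets per array lay above the floor, against 12681 to 12830 in sepals, 12799 to 12906 in stamens and 14078 to 14140 in carpels. AP3 and PI, which define petal and stamen identity, are not analysed here. BPEp, a bHLH gene known to limit petal cell expansion, stood at 1000.3, 1069 and 1013 in petals, above all sepal, stamen and carpel arrays, the highest of which was a stamen array. The marker lists were chosen with earlier results of these data known, so that their values are a description and no independent check. The 6 tested carpel and ovule markers summed to 58.8 to 62.3 in petals, against 4233 to 4715 in carpels, and 5 of them, INO, CES, BAN, GILT and STOMAGEN, were below the floor in petals. The 6 tested pollen and pollen tube markers summed to 339 to 398 in petals, 326 to 331 in sepals and 286 to 311 in carpels, against 5483 to 5783 in stamens and 31177 to 34027 in mature pollen. ANX1, MGH3 and AtVEX1 were below the floor in petals, whereas PLIM2a, a pollen LIM-domain gene, had 111, 113 and 118, close to 121, 108 and 114 in sepals. Of these 6, 1 was called higher in petals than in carpels, PLIM2b, with 138, 146 and 172 in petals, 110.5, 119 and 119 in sepals, 792, 897 and 855 in stamens and 63.8, 71.2 and 49.7 in carpels. The part of pollen RNA in the comparisons with petals was not tested. SWEET9, the nectary sugar exporter, had 32.6, 23.4 and 27.7 in petals, against 159, 159 and 131 in stamens.

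Petals were nearest to stamens. Across the tested probe sets, the mean profile of stage 15 petals had a Pearson correlation of 0.873 with stamens, 0.849 with sepals and 0.724 with carpels, all on the same arrays of one processing and described here without a test. Against stamens, 686 probe sets were higher in petals and 1252 lower, or 3.89% and 7.1% of those tested. Without a pseudocount these counts were 1165 and 1894. Of the 1252 lower ones, 924 were brighter in mature pollen than in stamens, which is 73.8%, against 45.1% of all tested probe sets. Against sepals, 1564 were higher and 1539 lower (8.86% and 8.72%), and against carpels 2257 were higher and 3668 lower (12.8% and 20.8%). The 3 comparisons share the petal arrays. The median difference of all tested probe sets was -0.02 against sepals, 0.10 against stamens and -0.16 against carpels, and quantile normalization moved the last to 0.03. In tissue of many cell types, fewer cells of a type and less RNA per cell cannot be told apart.

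In petals, 227 probe sets were higher than in each of the 3 other organs, which is 1.29% of those tested, and 35 were lower than in each, or 0.198%. The 3 petal arrays lay above all 9 other arrays for each of the 227 and below all 9 for each of the 35, against 1567 (8.88%) and 594 (3.37%) of all tested probe sets. As the sets were chosen on these same arrays, the lack of overlap is a description and no support. The annotation used names 1 gene for 106 of the 227, several for 2 and none for 119, so that only the 106 can be named. The petal means of the 227, which the choice of the set used, ran from 33.2 to 2861 with a median of 305. The median over all tested probe sets was 59.0. For 123 of the 227 the organ nearest to petals was the stamens, for 56 the sepals and for 48 the carpels. Among all tested, 686 were higher in petals than in stamens, 1564 than in sepals and 2257 than in carpels, so that nothing is read from this split. A further description of their height is that 36 were past 4-fold against all 3 organs, beside 39 of all tested in any direction. In all 3 organs 23 of the 227 were below the floor, beside 1407 of the 17646 tested. At the limit, AT2G45180 (1.0002) and GH9B18 (1.01) were the named members with the smallest least difference, and AT3G52480 (0.997) and AT4G18280 (0.987) lay just outside. The call of AT2G45180 against stamens ended without petal array C (0.98) or stamen array A (0.96).

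The gene with the largest least difference was CYP71B27 (AT1G13070), a cytochrome P450 of the CYP71B subfamily, a group of monooxygenases known from specialised metabolism. CYP71B27 had 480.1, 451 and 483 in petals, against 23.8, 16.3 and 22.4 in stamens, 16.5, 18.0 and 15.7 in sepals and 9.76, 11.2 and 12.3 in carpels. The petal arrays stood apart from the 9 others, and sepals and carpels were below the floor. The log2 differences were 4.11 ± 0.17 against sepals, 3.92 ± 0.17 against stamens and 4.43 ± 0.17 against carpels (largest adjusted p = 2.4e-28), and the fold was at least 20.9 against sepals and carpels. A second member of the subfamily in the set, CYP71B38 (AT3G44250), had 446, 455 and 495 in petals and 165, 160.1 and 150.4 in stamens, with sepals and carpels below the floor. Its difference from stamens was 1.49 ± 0.20 (adjusted p = 4.75e-09).

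Among the other genes named by size, AT5G53810, AT1G18810, AT4G34320 and AT4G19380 were below the floor in all 3 other organs. AT5G53810 had 254, 206 and 246 in petals, at least 10.4-fold higher than in the others. AT1G18810 had 164, 164 and 171, at least 7.35-fold higher, with petal arrays close to each other. AT4G34320 had 127, 128 and 131, at least 5.68-fold higher, and AT4G19380 84.7, 88.8 and 90.8, at least 3.9-fold higher. These 4 genes were thus measured above the floor in petals alone among the stage 15 floral organs. Genes printed as a locus have no symbol in the annotation used, and no role is given for them, except for AT5G61590, which has a synonym.

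Other genes were measured in several organs and were far brighter in petals. AT4G04460 had 2032, 2552 and 1739 in petals, 372, 341 and 362 in sepals, 140.5, 164 and 154 in stamens and 53.7, 52.2 and 51.7 in carpels, an order in which no 2 organs overlapped. Its difference from sepals, the nearest organ, was 2.50 ± 0.11 (adjusted p = 2.55e-28). AT1G70720 had 2002, 2104 and 1525 in petals, against 30.8, 24.7 and 40.8 in sepals, 392, 410.1 and 377 in stamens and 56.5, 50.4 and 47.1 in carpels. For AT1G70720 stamens were the nearest organ, at 2.21 ± 0.21, and the petal mean was 58.5-fold that of sepals. AT5G61590, listed as DEWAX, a transcription factor known to repress wax synthesis, had 958, 1109.6 and 892 in petals, against 133, 117 and 129.6 in sepals, 185, 152 and 176 in stamens and 198, 202 and 205 in carpels. The 9 other arrays of DEWAX lay within 117 to 205, and the petal arrays were all at 892 or more (smallest difference 2.22 ± 0.09, adjusted p = 2.41e-29).

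The remaining 7 of the 15 genes named by size differed by 2.35 or more from each organ. AT5G01740 averaged 727 ± 29.9 in petals, against 64.7 ± 9.4 in stamens, the nearest organ, and was below the floor in carpels. AT1G20180 averaged 551 ± 34.7 against 74.3 ± 5.16 in stamens, likewise below the floor in carpels. AT1G54790 averaged 425 ± 21.4 in petals and 39.2 ± 8.8 in sepals, with stamens and carpels below the floor. In contrast, carpels were the nearest organ for the last 4. AT4G38950 averaged 437 ± 51.0 in petals and 53.4 ± 7.09 in carpels. AT3G60290 averaged 276 ± 29.7 in petals and 34.4 ± 4.1 in carpels. AT1G54820 had 167 ± 22.7 in petals against 22.5 ± 4.42 in carpels, and AT1G23205 381 ± 8.98 in petals against 65.8 ± 3.17 in carpels.

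**Figure D1:**
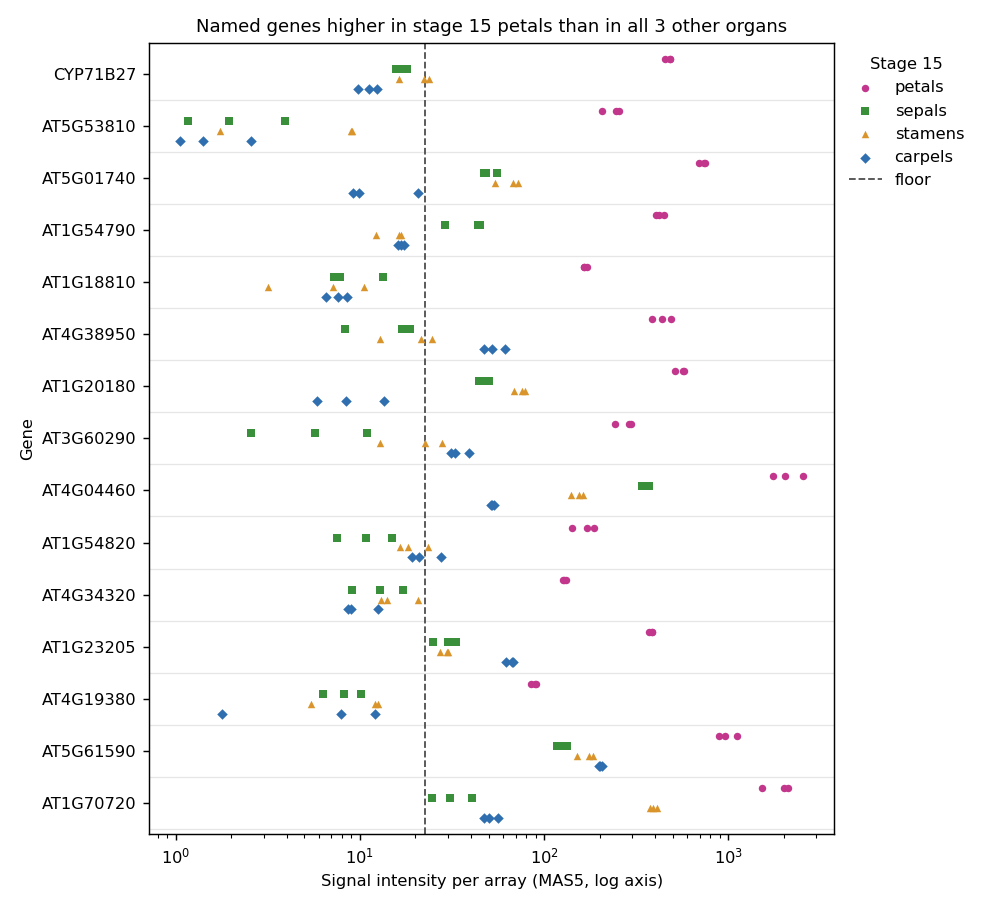
Signal intensity (x axis, log scale) of the 15 named genes with the largest least difference (rows), with 1 point per array in stage 15 petals, sepals, stamens and carpels and the floor of 22.6 as a dashed line. In every row the 3 petal points lie to the right of the 9 others, and in 4 rows (AT5G53810, AT1G18810, AT4G34320 and AT4G19380) the 9 others lie left of the floor.

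Of the 106 named genes of the petal-higher set, 17 have a symbol in the annotation, and the 15 of these outside the P450 family are described here by role. Except for EXLA2 and GSTU26 they were chosen after their values were seen. Regulators of organ form and of the cell cycle were YAB5 and SIM. YAB5 (AT2G26580), a YABBY transcription factor of the lower side of lateral organs, had 89.9, 79.8 and 81.4 in petals, against 14.6, 24.8 and 15.5 in sepals, 19.4 ± 3.32 in carpels (mean) and a level below the floor in stamens. Its smallest difference was 1.63 ± 0.15, from carpels (adjusted p = 7.79e-15). SIM (AT5G04470), the SIAMESE inhibitor of cyclin-dependent kinases known for endoreduplication in trichomes, had 308, 308 and 293 in petals, 119, 131 and 125 in stamens, 107, 131 and 108 in carpels and 69.9, 52.7 and 44.9 in sepals. The SIM petal arrays were all at 293 or more, and stamens and carpels overlapped.

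Genes of the cell wall made up a further part of the symbol-named members. TBL38 (AT1G29050), of a family known for the acetylation of wall polysaccharides, had 1331, 1438 and 1212 in petals, against 321, 374 and 356 in sepals, 178, 175 and 169 in stamens and 92.9, 96.1 and 98.1 in carpels. The pectin methylesterase gene ATPMEPCRD (AT2G43050) averaged 232 ± 19.9 in petals, 51.2 ± 13.7 in stamens and 43.8 ± 5.61 in sepals, and was below the floor in carpels. GH9B18 (AT4G39010), a family 9 glycosyl hydrolase, averaged 103 ± 7.9 in petals, against 45.8 ± 4.68 in carpels, and lost that call without petal array B (0.95) or carpel array C (0.94). The expansin-like gene EXLA2 (AT4G38400) had 113, 100.3 and 105 in petals, 50.3, 44.3 and 45.5 in stamens and 48.6, 41.2 and 42.4 in carpels, with sepals below the floor. EXLA2 stood only just past 2-fold against stamens (1.02 ± 0.11, adjusted p = 6.28e-12), and fell short of that limit without petal array B (0.98) or stamen array B (0.99).

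The remaining symbol-named members were not grouped by role. COR15A (AT2G42540), a cold-induced protein of the chloroplast stroma, was the brightest of them, with 2455, 2328 and 2031 in petals, 839, 868 and 1066 in sepals, 505, 455 and 525 in stamens and 194, 195 and 196 in carpels. Each organ of COR15A was separate from the next. LCR68 (AT2G02130), of the defensin family, averaged 918 ± 19.1 in petals and 428 ± 17.2 in stamens, the nearest organ. GSTU26 (AT1G17190), a glutathione transferase, averaged 251 ± 39.0 in petals and 95.4 ± 13.1 in stamens. AtS40-3 (AT4G18980), of a family linked to senescence, had 348, 495 and 472 in petals, 175, 182 and 156 in stamens and 119, 94.6 and 118 in sepals and was below the floor in carpels. The aspartic protease gene NANA (AT3G12700) averaged 179.9 ± 2.46 in petals, against 37.9 ± 4.65 in sepals. The beta-glucosidase gene BGLU41 (AT5G54570) averaged 50.4 ± 4.73 and was below the floor in the other organs. PAP20 (AT3G52780), a purple acid phosphatase, averaged 152 ± 8.54 in petals and 62.5 ± 7.46 in sepals, and AR781 (AT2G26530) 645 ± 19.3 in petals and 274 ± 18.8 in sepals. TRM26 (AT2G17550) averaged 174 ± 16.4 in petals and 67.5 ± 2.78 in stamens, its nearest organ.

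The petal-lower set was small and depended on how dim values were treated. The 35 probe sets became 224 without a pseudocount, 20 with a pseudocount equal to the floor and 23 after quantile normalization. In the petals themselves 14 of the 35 were below the floor, beside 4557 of the 17646 tested, and the set's median petal signal was 26.5. Of the 35, 13 pair with 1 gene. The largest least difference was that of AT2G03980, with 37.6, 34.3 and 40.8 in petals, against 255, 284 and 254 in sepals, 583, 506 and 618 in stamens and 431, 402 and 421 in carpels. The petal arrays of AT2G03980 were 7.04-fold below sepals on average (-2.50 ± 0.09, adjusted p = 2.16e-31), and mature pollen, which the choice of the set did not use, had 4917, 5464 and 5859.6.

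The second was BSMT1 (AT3G11480), the methyltransferase that makes the volatile esters methyl salicylate and methyl benzoate. BSMT1 had 41.5, 40.9 and 50.3 in petals, 172, 188 and 168 in stamens, 317, 304 and 295 in carpels and 1144, 1003 and 1105 in sepals. All 4 organs were separate, with petals lowest and sepals highest, and the differences were -1.76 ± 0.11 against stamens, -2.51 ± 0.11 against carpels and -4.30 ± 0.11 against sepals (largest adjusted p = 4.62e-21). JMT (AT1G19640), which makes methyl jasmonate, was lower than in stamens and sepals but not than in carpels, with 51.5, 54.8 and 51.3 in petals, 706, 671 and 619.5 in stamens, 207, 174 and 214 in sepals and 33.8, 36.7 and 32.7 in carpels.

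UF3GT (AT5G54060), a glycosyltransferase of anthocyanin synthesis, was below the floor in petals, against 46.4, 39.2 and 50.0 in stamens, 107, 104 and 95.6 in sepals and 259.9, 258 and 257 in carpels, or at least 11.4-fold lower than in carpels. The asparaginase gene ASPGB1 (AT3G16150) had 45.1, 43.7 and 44.0 in petals, against 124, 122 and 107 in stamens, 166, 157 and 169 in sepals and 265, 258 and 254 in carpels. AT2G43530 had 35.3, 47.0 and 46.1 in petals, against 1085, 1068 and 1107 in carpels. Its sepal and stamen arrays lay between, and overlapped each other. IQD23 (AT5G62070), of the calmodulin-binding IQD family, was below the floor in petals and averaged 50.2 ± 3.06 in stamens, 55.6 ± 16.2 in sepals and 58.8 ± 11.9 in carpels. All 3 of its calls ended with a pseudocount equal to the floor (-0.92 against sepals, -0.84 against stamens and -0.99 against carpels). Those against stamens (-0.99) and carpels (-0.81) also ended under quantile normalization, and that against sepals without sepal array B (-0.98).

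The plastid ribosomal protein gene rpl20 rested on 1 petal array. Its values were 162, 151 and 37.5 in petals, 196, 208 and 233 in stamens, 296, 308 and 282 in sepals and 392, 439 and 383 in carpels, and the low petal value is that of array D. Without it the differences were -0.87 against sepals and -0.41 against stamens (adjusted p = 0.0562), and neither call held. The call against stamens also ended without stamen array C (-0.94). AT2G16630 was below the floor in petals and averaged 39.8 ± 8.85 in sepals, and AT3G51670 averaged 61.1 ± 9.78 in petals and 142 ± 15.5 in stamens. The call of AT2G16630 against sepals ended without sepal array C (-0.98) or petal array C (-0.84), and that of AT3G51670 against stamens without petal array C (-0.97). The other members, AT1G73600, AT2G01610, AT5G59480 and AT1G43910, averaged 15.9 to 75.2 in petals and kept their calls when any 1 array was left out. Other settings ended some of them. A pseudocount equal to the floor ended that of AT1G43910 against carpels (-0.97) and of AT1G73600 against stamens (-0.96), and quantile normalization those of AT1G43910 against carpels (-0.86) and AT5G59480 against sepals (-0.93). Division by the 75th percentile also ended that of AT1G43910 against carpels, which then fell just short of 2-fold.

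**Figure D2:**
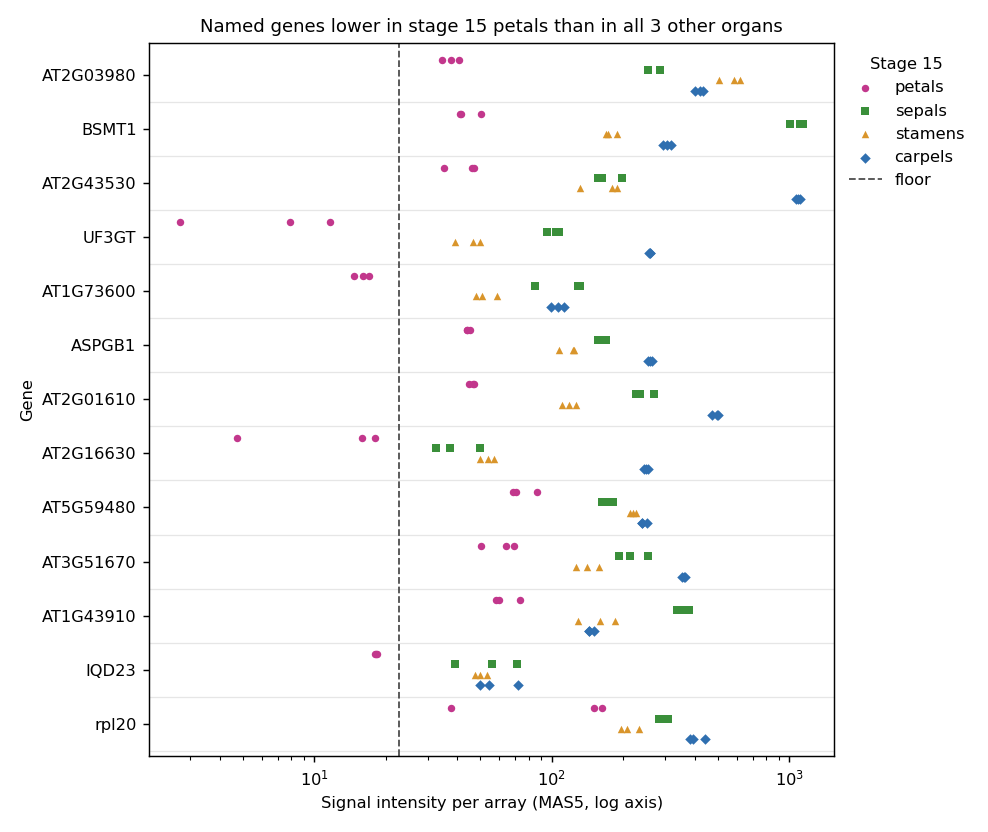
Signal intensity (x axis, log scale) of the 13 named genes lower in petals (rows), with 1 point per array in stage 15 petals, sepals, stamens and carpels and the floor of 22.6 as a dashed line. The petal points lie left of the 9 others in every row, and those of rpl20 are spread from 37.5 to 162.

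The members of the gene lists were counted next, beside the shares called among all tested probe sets. Those shares are 8.86% (higher) and 8.72% (lower) against sepals, 3.89% and 7.1% against stamens, and 12.8% and 20.8% against carpels. Of the regulators of petal growth and shape, 5 of 19 listed genes were tested. Against sepals 2 were higher, against stamens 1 and against carpels 1, with BPEp and YAB3 as the only genes called. BPEp (AT1G59640) was higher than in sepals and carpels, with 1000.3, 1069 and 1013 in petals, 113, 168 and 177 in sepals, 706, 687 and 715 in stamens and 64.3, 52.0 and 67.9 in carpels, and its difference from stamens was 0.54 ± 0.13, under 2-fold. YAB3 (AT4G00180), a YABBY gene like YAB5, was higher than in sepals and stamens, at 70.7 ± 4.93 in petals, 21.3 ± 2.49 in sepals and below the floor in stamens, while carpels had 43.7 ± 5.59 (difference 0.58 ± 0.24). RBE, JAG and PTL, which act early in petal initiation and growth, were below the floor in all 4 organs.

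The 15 tested expansins, proteins that loosen the cell wall, had no common direction. Against sepals 3 were higher and 1 lower, against stamens 1 and 3, and against carpels 4 and 4, with median differences of 0.07, -0.11 and -0.13. Chosen after their values were seen, EXPA8 had 1892, 1980.2 and 1627 in petals and 1945, 2004 and 1973 in stamens, against 25.5, 28.6 and 25.6 in sepals and 145, 139.9 and 146 in carpels. Petals and stamens of EXPA8 overlapped, and both were above the rest. EXLA1 averaged 1217 ± 87.9 in petals and 1003 ± 26.8 in stamens, against 246 ± 15.6 in sepals and 199 ± 6.36 in carpels. Of the 6 xyloglucan hydrolases, which cut and rejoin wall xyloglucan, 1 was higher than in sepals, 1 lower than in stamens, and 2 higher and 2 lower than in carpels. XTH19 had 44.3 ± 10.3 in petals, against 1017 ± 14.1 in stamens, and XTH16 was below the floor in petals, against 244 ± 9.47 in carpels.

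All 4 tested cell division genes were lower in petals than in carpels and 3 of them lower than in stamens, beside 20.8% and 7.1% of all tested probe sets. Against sepals 0 were called, with a median difference of -0.20, and 3 were below the floor in sepals, as in petals. TOPII, a topoisomerase of replicating DNA, AUR2, a mitotic Aurora kinase, and PRL, a subunit of the replicative helicase, were below the floor in petals. TOPII averaged 201 ± 6.29 in carpels, and PRL 199.6 ± 7.41. AUR2 averaged 97.4 ± 5.26 in carpels and 296 ± 1.5 in stamens, and had 2426, 2548 and 2670 in mature pollen.

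Of 20 tested genes of sugar transport and invertase, 6 were higher than in sepals and 1 lower, 2 higher than in stamens and 5 lower, and 6 higher than in carpels and 2 lower. Among all tested probe sets the shares higher and lower were 8.86% and 8.72% against sepals, 3.89% and 7.1% against stamens, and 12.8% and 20.8% against carpels. The SWEET sugar transporters named here differed in the organs where they were bright. SWEET14 and SWEET13 were brightest in stamens. SWEET14 was below the floor in petals, against 1765, 1825 and 2117 in stamens, and SWEET13 had 29.9, 39.3 and 27.1 in petals, against 1798, 1739 and 1786 in stamens. SWEET11 had 1102, 1031 and 1067 in petals, 1655, 1957 and 1895 in sepals and 1695, 1933 and 1737 in stamens, against 25.1, 32.1 and 26.5 in carpels. It was called only against carpels (4.79 ± 0.09, adjusted p = 1.09e-44). Among those chosen after their values were seen, SWEET1 averaged 1777 ± 349 in petals and 1678 ± 107 in stamens, against 720.0 ± 41.9 in sepals and 825 ± 28.1 in carpels, and its call against carpels ended without petal array C (0.94). The vacuolar fructose transporter SWEET17 averaged 192 ± 34.9 in petals, against 140.4 ± 10.8 in carpels, 49.6 ± 5.71 in stamens and 28.0 ± 4.48 in sepals.

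SAG29 (AT5G13170), the senescence-associated sugar exporter SWEET15, was higher in petals than in sepals and carpels, with 915, 967 and 848 in petals, 510.1, 536 and 506 in stamens, 426, 430.0 and 403 in sepals and 175, 187 and 179.7 in carpels. Petals lay above every other array, and the difference from stamens was 0.80 ± 0.15, short of 2-fold. Of the 4 tested senescence, ethylene and abscission genes, 3 were higher than in carpels, and 1 was higher and 2 were lower than in sepals. The vacuolar processing enzyme gene GAMMA-VPE, a protease of programmed cell death, had 2913, 3544 and 2711 in petals, 2075, 2180.3 and 2442 in sepals, 1894, 2011 and 2067 in stamens and 366, 364 and 366 in carpels, and was called against carpels alone. WRKY6 and WRKY53, transcription factors of leaf senescence, were lower than in sepals: WRKY6 averaged 106 ± 13.7 in petals and 304 ± 12.4 in sepals, and WRKY53 was below the floor in petals, against 234 ± 9.2 in sepals. The senescence list thus held members in both directions against sepals.

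The flavonoid list had 7 tested members. Against sepals 2 were higher and 3 lower, against stamens 1 and 1, and against carpels 5 were lower. DFR, a late enzyme of anthocyanin synthesis chosen after its values were seen, was below the floor in petals, against 81.4, 78.0 and 77.0 in sepals and 175, 172 and 164 in carpels. UGT78D1, a flavonol glycosyltransferase, was higher than in sepals and stamens and lower than in carpels, with 99.5 ± 17.9 in petals, 334 ± 10.5 in carpels and levels below the floor in the other 2 organs. Over the whole UDP-glycosyltransferase family, 4 of 36 were higher and 12 lower than in sepals, 4 higher and 5 lower than in stamens, and 14 higher and 3 lower than in carpels. These are 11.1% and 33.3% of the family against sepals, 11.1% and 13.9% against stamens, and 38.9% and 8.33% against carpels, beside 8.86% and 8.72%, 3.89% and 7.1%, and 12.8% and 20.8% of all tested. The brightest in petals was UGT85A3, at 1612 ± 212, against 1207 ± 109 in stamens, 201 ± 20.2 in sepals and 50.4 ± 3.48 in carpels.

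Of the 19 tested cytochrome P450 genes, 2 were higher than in all 3 organs, as given above, or 10.5%, beside 1.29% of all tested. Against sepals 5 were higher and 4 lower (26.3% and 21.1%), against stamens 4 were higher (21.1%), and against carpels 5 were higher and 2 lower (26.3% and 10.5%), beside the same shares of all tested. CYP71B31, chosen after its values were seen, had 2551, 2939 and 2203 in petals and 1303, 1318 and 1544 in stamens, against 78.1, 74.2 and 59.7 in sepals and a level below the floor in carpels. Of the 4 tested floral volatile genes, which include BSMT1 and CYP71B31, 1 was higher and 1 lower than in sepals, 3 were lower than in stamens, and 1 was higher and 2 lower than in carpels. Of the 4 tested glucosinolate and myrosinase genes, 2 were higher than in carpels, the transporters GTR1 and GTR2, and 1 was higher and 1 lower than in sepals. GTR1 had 911, 1031 and 949.7 in petals, 754, 780.3 and 782 in stamens, 455, 419 and 449 in sepals and 190.2, 217 and 196 in carpels. GTR2 averaged 1574 ± 69.6 in petals, 1406 ± 122 in sepals, 1106 ± 30.1 in stamens and 190.3 ± 13.6 in carpels.

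Chloroplast-encoded genes were the largest list, with 69 tested members, of which 17 were lower than in sepals, 1 than in stamens and 16 than in carpels. These are 24.6%, 1.45% and 23.2% of the list, beside 8.72%, 7.1% and 20.8% of all tested probe sets. The median differences were -0.62, -0.11 and -0.60, against sepals, stamens and carpels. No member was called higher by limma, although 4, 3 and 2 were above 0 at an unadjusted p below 0.05, and 1 was called higher than in stamens without petal array C and 1 than in carpels without petal array D. The petal arrays were uneven here. The summed signal of the 69 genes was 54800, 52656 and 39486 in petal arrays B, C and D, against 60507, 67835 and 71385 in sepals, 46518, 56161 and 55511 in stamens and 64104, 66281 and 69949 in carpels. Petals and stamens overlapped, and petals lay below sepals and carpels with or without array D. Without petal array D, 15 genes were lower than in sepals and 14 than in carpels, and the medians were -0.44 and -0.36. Against stamens the count was then 0, with 2 genes below 0.05 unadjusted and above 0, and the median was -0.01. Without petal array B, 23 genes were lower than in sepals, 3 than in stamens and 18 than in carpels, and the medians were -0.73, -0.24 and -0.77. Of 7 tested nuclear genes of the photosystems and light harvesting, 1 was lower than in sepals and 2 than in carpels. LHCB4.3, an antenna protein, was lower than in both, with 289, 285 and 262 in petals, 227, 256 and 217 in stamens, 775, 758 and 972 in sepals and 591, 696 and 651 in carpels. Of the 3 tested genes of chlorophyll synthesis and Rubisco, 1 was higher than in sepals and 2 were lower than in carpels. PORB, an enzyme of chlorophyll synthesis, was lower than in carpels and higher than in sepals, with 142, 148 and 165 in petals, 41.3, 41.5 and 46.1 in sepals and 914, 915 and 919.8 in carpels. Of the 3 tested cuticle genes, SHN3, a regulator of cutin, and WSD1, a wax ester synthase, were lower than in carpels. SHN3 was below the floor in petals, against 158 ± 7.34 in carpels, and WSD1 averaged 26.8 ± 5.65 in petals and 554 ± 69.0 in carpels. WSD1 was also the 1 gene of the list higher than in sepals, where it was below the floor. Its petal mean was itself near the floor, and that call ended with a pseudocount equal to the floor (0.90). DEWAX is not on that list.

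**Figure D3:**
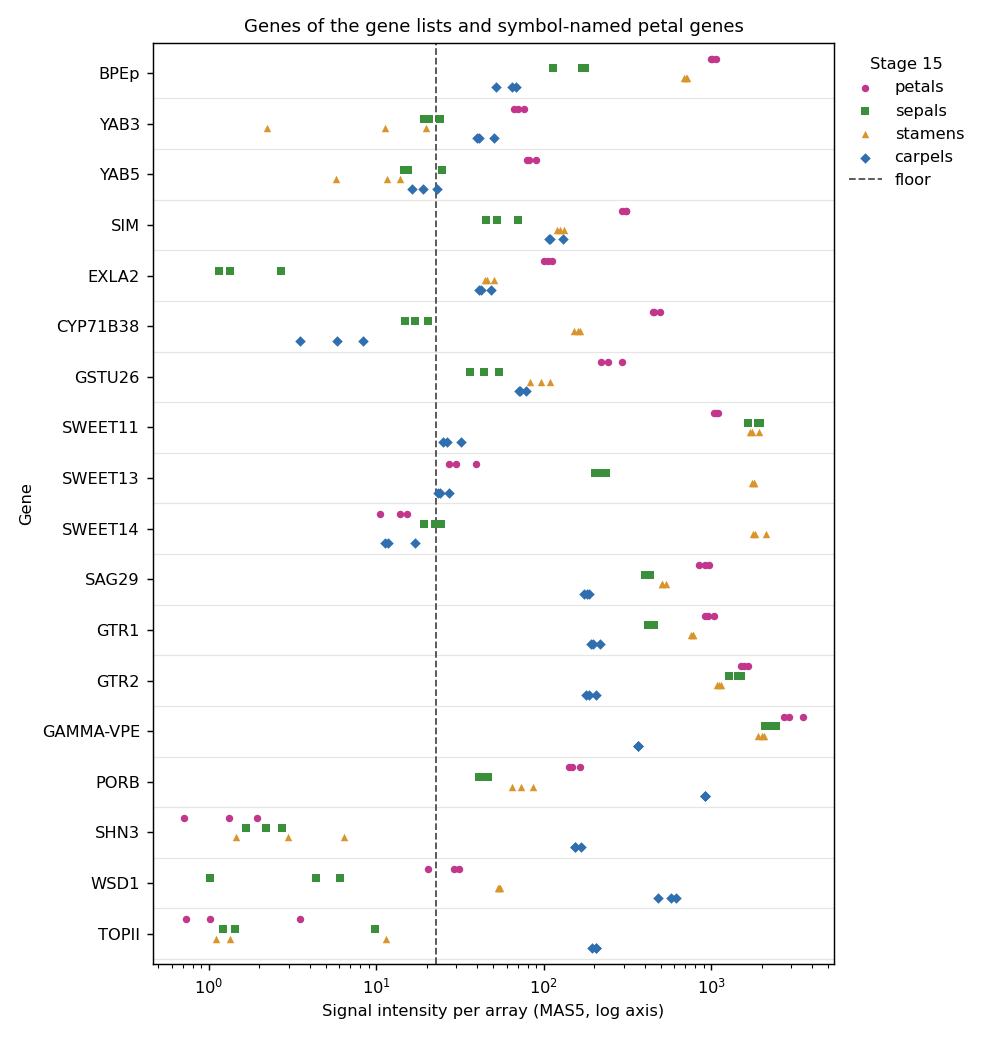
Signal intensity (x axis, log scale) of 18 genes of the gene lists and of the symbol-named petal-higher genes (rows), with 1 point per array in stage 15 petals, sepals, stamens and carpels and the floor of 22.6 as a dashed line. BPEp, SWEET11, SAG29, GTR1 and GTR2 are bright in petals, sepals or stamens and dimmer in carpels, whereas PORB, SHN3, WSD1 and TOPII are brightest in carpels.

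Of 7 tested auxin response genes, 3 were higher than in carpels, 1 was higher than in sepals and 1 lower than in stamens. GH3.17, which conjugates auxin to amino acids, had 544 ± 29.2 in petals, 911 ± 35.0 in stamens, 236 ± 23.3 in sepals and 22.9 ± 3.09 in carpels. The 1 tested TCP gene, TCP15, a regulator of cell proliferation, averaged 70.0 ± 6.97 in petals and 238 ± 9.99 in carpels. Of 3 pectin methylesterases and inhibitors named as such in the annotation, 1 was lower than in sepals and 2 were lower than in carpels, with PME61 among them, which was below the floor in petals. The other gene of the list lower than in carpels was ATPMEPCRB (-1.92). ATPMEPCRD, higher in petals than in all 3 organs, is not on that list, which was drawn by a match to symbols and synonyms. Of 9 tested glutathione transferases, 2 were higher and 2 lower than in sepals, 1 was higher than in stamens, and 5 were higher and 1 lower than in carpels. Of 7 WRKY genes, 2 were lower than in sepals and 1 higher than in carpels. Of 6 tested genes of the bHLH list, 1 was lower than in carpels, and the 1 tested NAC gene was called against no organ by limma, with differences of 0.13, 0.45 and 0.09 from sepals, stamens and carpels. LYC, a lycopene cyclase of carotenoid synthesis, was higher than in carpels (1.01 ± 0.09), a call that ended without petal array C (0.95) or carpel array C (0.98).

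Stage 12 arrays, which the choice of the sets did not use, were examined for the same probe sets. At stage 12, the late bud before opening, 294 probe sets (1.67%) were higher in petals than in all 3 organs and 89 (0.504%) lower. Of the 227 stage 15 probe sets 43 were among the 294, which is 18.9% of the 227 and 14.6% of the 294. Of the 35 lower ones 4 were among the 89, or 11.4% of the 35 and 4.49% of the 89, and 2 of the 35 were instead higher than all 3 organs at stage 12. By single comparison, 67 of the 227 were higher than in sepals (29.5%, beside 8.25% of all tested), 119 than in stamens (52.4% beside 16.6%) and 104 than in carpels (45.8% beside 6.35%). In the other direction 30, 23 and 8 were lower, or 13.2%, 10.1% and 3.52%, beside 11.6%, 13.5% and 8.6%. At stage 12, 154 of the 227 (67.8%) were higher than at least 1 organ, beside 22.7% of all tested. Further, 47 (20.7%, beside 28.9%) were lower than at least 1, and 45 (19.8%, beside 53.5%) were called against no organ. Also 45 of the 227, or 19.8%, were below the floor in stage 12 petals, beside 23.6% of all tested.

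Named genes show both cases. AT4G38950 was higher in petals at both stages, with 687, 649 and 654 in stage 12 petals, against 65.2, 63.8 and 68.5 in stage 12 carpels, the nearest organ. AT1G54820 was brighter at stage 12 than at stage 15, with 489, 557 and 583 in stage 12 petals, against 108, 112 and 110.1 in stage 12 sepals. AT1G70720, AT1G18810, AT1G23205 and AT4G19380 were likewise higher than all 3 organs at both stages. CYP71B27, AT5G53810, AT1G20180 and AT4G34320, by contrast, were below the floor in all stage 12 organs measured. The brightest organ of AT4G04460 differed between the stages. At stage 12 it had 45.9, 52.1 and 44.7 in petals and 3239.9, 3651 and 3247 in stamens, whereas at stage 15 the petals were the brightest. Petals and stamens of that gene did not overlap at either stage. In the lower set, AT2G03980, BSMT1, AT1G73600 and AT1G43910 were the 4 that were lower at both stages, and BSMT1 was below the floor in stage 12 petals, against 369.5, 375 and 385 in stage 12 sepals.

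The difference between stages was tested directly, as the petal level minus the mean of sepals, stamens and carpels in open flowers, less the same quantity in stage 12 buds. For 136 of the 227 this difference was called above 0 and for 4 below, or 59.9% and 1.76%, beside 7.59% and 7.11% of all tested. Since the stage 15 arrays in this test are those that chose the 227, the shares are a description and no support. Among the 15 genes named by size, the largest values were those of AT4G04460, at 5.81 ± 0.12, AT5G01740, at 4.53 ± 0.21, and CYP71B27, at 3.98 ± 0.19. For genes outside the set, BPEp had 1018, 949 and 925 in stage 12 petals, near its stage 15 level. GTR2 had 46.0, 41.2 and 32.8 in stage 12 petals. GTR1 averaged 109 ± 7.08 there, SAG29 31.2 ± 3.31 and GAMMA-VPE 168 ± 8.83, below all their stage 15 petal arrays. This change within petals was not tested.

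**Figure D4:**
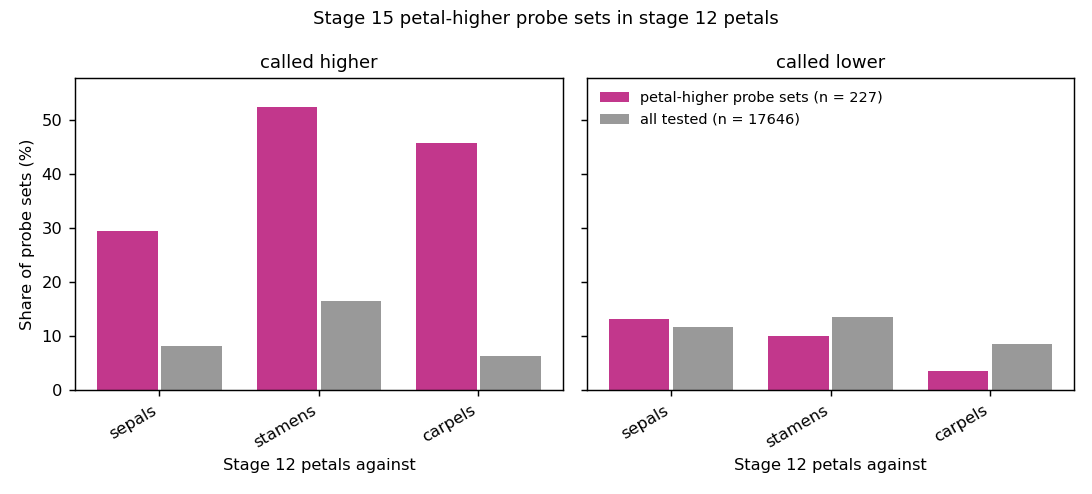
Share of probe sets (y axis, percent) called higher (left) or lower (right) in stage 12 petals than in stage 12 sepals, stamens and carpels, for the 227 probe sets higher in stage 15 petals and for all 17646 tested. The share called higher reaches 52.4% of the 227 against stamens, beside 16.6% of all tested, while the shares of the 227 called lower are 13.2% or less.

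The mutant flowers give a second readout on arrays the sets did not use. By the labels, ap3-6 flowers lack petals and stamens, ap2-6 flowers lack sepals and petals, ap1-15 flowers lack sepals and have secondary flowers in place of petals, lfy-12 flowers are turned into leaf-like structures, and ufo-1 flowers have filamentous organs in the petal and stamen whorls. In ag-12 flowers sepals and petals stand in place of stamens and carpels. The 7 comparisons share the stage 12 flower arrays and are given side by side. In those arrays 59 of the 227 (26.0%) were below the floor, beside 15.6% of all tested. Such members had little room to be called lower, and members could pass the filter on dim values through stage 15 petals alone. Of the 227, the number lower than in wild-type flowers was 43 in lfy-12 (18.9%, beside 7.35% of all tested), 32 in ap3-6 (14.1% beside 6.21%), 31 in ap2-6 (13.7% beside 4.97%), 26 in ap1-15 (11.5% beside 3.51%), 18 in ag-12 (7.93% beside 6.02%) and 17 in ufo-1 (7.49% beside 4.24%). In clv3-7, where the labels give more organs per flower, 2 of the 227 were called, both higher (0.881%, with 0.425% higher and 0.272% lower of all tested). The number higher was 9 in ag-12 (3.96% beside 1.05%), 4 in ap1-15 (1.76% beside 2.06%), 3 in lfy-12 (1.32% beside 2.45%), 2 in ufo-1 (0.881% beside 0.844%), and 1 each in ap2-6 and ap3-6 (0.441%, beside 1.46% and 1.11%). The ap3-6 count of 32 was 57 without a pseudocount and 17 with one equal to the floor, and the ag-12 count of 9 was 15 and 5 under the same settings.

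The called members were then split by the stage 12 organ, petals or stamens, in which they were brighter. Of the 32 lower in ap3-6, 15 were brighter in stage 12 stamens than in stage 12 petals, against 958 of the 1095 among all tested. Those are 46.9% of the 32 and 87.5% of the 1095. Of the 18 lower in ag-12, 16 were brighter in stamens (88.9%), beside 992 of 1063 among all tested (93.3%). The 9 higher in ag-12 were all brighter in petals, beside 143 of 186 among all tested (76.9%). AT1G70720 was lower in ap3-6, with 23.5, 21.6 and 24.0 in ap3-6 flowers, against 177, 182 and 165 in stage 12 flowers (-2.44 ± 0.21, adjusted p = 2.85e-15), and had 255, 277 and 232 in ag-12 flowers. AT4G38950 had 51.2, 48.7 and 48.7 in ap3-6 flowers, against 137, 106 and 131 in stage 12 flowers (-1.16 ± 0.14, adjusted p = 2.92e-10). It had 239, 191 and 249 in ag-12 flowers, above all stage 12 flower arrays but under 2-fold (0.80 ± 0.14). COR15A and TBL38 were also lower in ap3-6 (-1.40 and -1.06), as was BPEp (-1.94), which is outside the set. COR15A was brighter in stage 12 stamens than in stage 12 petals. BPEp had 937, 955 and 961 in stage 12 stamens, beside 1018, 949 and 925 in stage 12 petals. Flowers of ap3-6 lack both organs, and the share of each organ in these lower levels was not tested.

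In ag-12, AT4G19380 was higher, with 95.6, 71.5 and 99.6 in ag-12 flowers, against 24.9, 25.6 and 25.0 in stage 12 flowers (1.45 ± 0.17, adjusted p = 2.98e-10). AT1G54820 had 281, 267 and 287 in ag-12 flowers, against 134, 132 and 126 in stage 12 flowers (1.03 ± 0.12). The groups did not overlap for either gene. AT4G28780, AT4G30660 and AT5G50335 were the other named members higher in ag-12, at 1.02, 1.20 and 2.24. AT4G04460, bright in stage 12 stamens, was below 35 in every ap3-6 and ag-12 array, against 1997, 2114 and 1989 in stage 12 flowers.

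**Figure D5:**
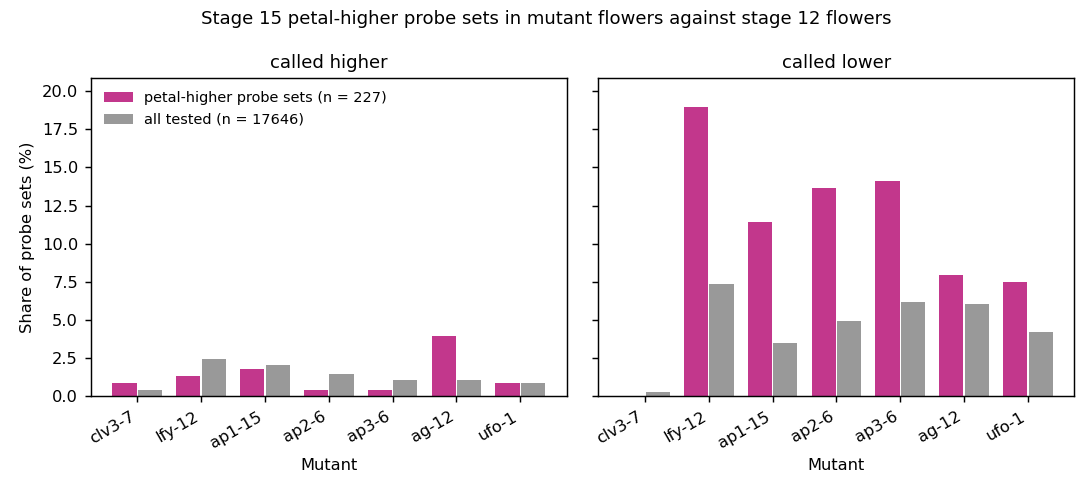
Share of probe sets (y axis, percent) called higher (left) or lower (right) in each of 7 mutant flowers (x axis) against wild-type stage 12 flowers, for the 227 probe sets higher in stage 15 petals and for all 17646 tested. Outside clv3-7 the share called lower is above that of all tested in each mutant, from 7.49% to 18.9%, and the share called higher stands out in ag-12, at 3.96% beside 1.05%.

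Outside the 4 organs, the 227 probe sets had median signals of 91.4 in stage 15 whole flowers, 42.3 in pedicels and 14.6 in mature pollen, beside 72.2, 64.3 and 34.2 over all tested. They were below the floor in pedicels for 77 (33.9%, beside 20.7% of all tested) and in pollen for 117 (51.5%, beside 25.5%), although members could pass the filter on dim values through petals alone, so that nothing is read from these shares. In 7 of the 227 the pedicel mean was above the petal mean, and in 2 the pollen mean was. Pedicels had 388, 321 and 382 of DEWAX, the highest level of that gene outside petals and stage 15 whole flowers among the groups whose values are given here.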

How the data were processed

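The deposited values are MAS5 signal intensities on a linear scale, per the submitters' processing notes (version not given in the sources used here), with 1 column per array from 22810 probe sets. Of these, 64 controls and 5100 probe sets that were not above the floor on all arrays of any group were left out, and 17646 were tested. The signals of all 66 arrays were fitted as log2(signal + 11.3) with limma 3.58.1 in R 4.3.3 (lmFit and eBayes with trend, 22 group means, 44 residual degrees of freedom). p-values were adjusted over all tested probe sets by Benjamini-Hochberg. The pseudocount is 0.5 times the floor. GEO's platform table paired 13513 probe sets with 1 gene, 503 with several and 8730 with none, and names are those of RefSeq TAIR10.1.

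Named genes are those whose probe set pairs with 1 gene: up to 15 per direction with the largest least difference and no overlap, and up to 4 members of each gene list. Members and lists were chosen with earlier results of these data known. Further list members and symbol-named genes were chosen after their values were seen. The fit was run on simulated data with equal group means, independent noise and changes only in probe sets well above the floor. That run does not cover dim genes or effects shared by arrays. Array letters were checked for pairing. Deviations of same-lettered arrays correlated at -0.023 to 0.055 (median 0.026), beside -0.076 to 0.126 (median -0.008) for other letters. The highest was that of petal array D with sepal array A. Letters were not taken as pairing, but this check cannot exclude a weak pairing or one across letters. The number of arrays limits the precision. Alternatives were the pseudocount, filter, normalization, fit, fold limit, replicate block and leaving out each of 12 arrays.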

Additional observations from a re-analysis of the deposited data

Results flagged for a closer look

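For 17 of the 28 genes named by size, the petal effect differed between the stages, by a direct limma test of the petal level minus the mean of sepals, stamens and carpels at stage 15, less the same at stage 12. The stage 15 arrays of this test also chose the genes. Groups of 3 arrays were not checked for outlying arrays. Values are log2 differences ± SE, with the genes higher in petals first.

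The difference was above 0 for 11 genes, all of the petal-higher set. It was 5.81 ± 0.12 for AT4G04460 (adjusted p = 1.88e-41), 4.53 ± 0.21 for AT5G01740 (adjusted p = 1.12e-26) and 3.98 ± 0.19 for CYP71B27 (adjusted p = 2.71e-25). AT1G20180 had 3.30 ± 0.20, AT5G53810 3.27 ± 0.20, AT1G54790 2.99 ± 0.22 and AT4G34320 2.77 ± 0.20. Smaller values were 2.13 ± 0.21 for AT3G60290, 1.40 ± 0.17 for AT1G18810, 1.31 ± 0.11 for DEWAX (AT5G61590) and 1.06 ± 0.12 for AT1G23205. AT1G18810 and AT1G23205 were already higher than all 3 organs at stage 12.

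It was below 0 for 6 genes of the petal-lower set. UF3GT had -2.22 ± 0.22, AT2G01610 -2.19 ± 0.15 and AT2G43530 -1.86 ± 0.14. AT5G59480 had -1.20 ± 0.07 and AT3G51670 -1.06 ± 0.16. The value of rpl20, -2.01 ± 0.26 (adjusted p = 2.2e-09), includes the low petal array D.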

How the results depend on the processing

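The 13 counts were recomputed in 21 settings, except that the 5 that need other arrays were not run in the 2 settings with 12 arrays. Of these 263 values, 24 moved by over 1.5 times, in 4 settings. Without a pseudocount, 1165 probe sets were higher and 1894 lower than in stamens, the petal-lower set held 224 with 24 also lower at stage 12, and 57 of the petal-higher set were lower in ap3-6 and 15 higher in ag-12. With a pseudocount equal to the floor, these last 4 counts were 20, 2, 17 and 5. Quantile normalization gave a petal-lower set of 23. At 4-fold the counts higher and lower were 534 and 511 against sepals, 115 and 619 against stamens, and 755 and 1076 against carpels. The sets then held 36 and 1, with 5 and 1 also called at stage 12, 2 lower in ap3-6, 0 higher in ag-12 by limma (9 at 2-fold) and 20 above 0 in the stage difference. The cause of these moves was not tested, apart from the stricter limit of the 4-fold setting. Leaving out each array in turn gave petal-higher sets of 225 to 234 and petal-lower sets of 33 to 41. With the replicate block, on 12 arrays and 5 residual degrees of freedom, the sets held 231 and 41, sharing 217 and 34 with those reported.

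Of 222 calls of named genes, 132 held in every setting and 0 changed sign. The 90 others all fell short of 4-fold, 17 ended with a pseudocount equal to the floor and 11 after quantile normalization. The settings for chloroplast-encoded genes were added after seeing the data. Of the 35 members of the petal-lower set, 14 were below the floor in petals, beside 4557 of the 17646 tested.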

Other observations

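Across the 17646 tested probe sets, the mean profile of stage 15 petals correlated at 0.880 with stage 15 whole flowers, at 0.842 with stage 12 sepals and at 0.791 with stage 12 petals. The older petals were thus nearer to the younger sepals than to the younger petals on these arrays, given here as a description. COR15A and EXLA2, both higher in stage 15 petals than in the 3 other organs, differed in the bud. COR15A had 2568, 1973 and 2237 in stage 12 petals, against 3412, 4183 and 3619 in stage 12 stamens, and EXLA2 had 94.6, 97.8 and 87.5 in stage 12 petals, against 68.0, 83.2 and 83.0 in stage 12 carpels. BGLU41 was below the floor in stage 12 petals, against 100.1, 108 and 91.0 in stage 12 stamens. PAP20 was also below the floor in stage 12 petals, against 149, 154 and 154 in stage 12 stamens.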
